A study of Mus musculus with 9 samples.

Results

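The genes described here are 39 genes that mark T cells, natural killer (NK) cells and B cells, the 3 main kinds of lymphocyte. They were taken by symbol, without regard to their values, as the non-control probes whose gene name or RefSeq accession matched one of the 39 symbols. All 39 were on the array, 28 with 1 probe and 11 with 2, which gave 50 of 39429 probes and 39 of 32451 genes and unnamed transcripts. The signals came from 9 one-colour Agilent arrays, each hybridised with labelled RNA from the kidney cortex of a mouse, in a study of unilateral ureteral obstruction (UUO). Tying the ureter of 1 kidney blocks its urine, and that kidney then inflames and scars. Per the study's design the mice were 12 to 16 weeks old and matched for sex, and the right ureter was tied for 5 days. Wild-type healthy kidneys gave 2 arrays, wild-type UUO kidneys 2, Notch3-/- healthy kidneys 2 and Notch3-/- UUO kidneys 3. The Notch3-/- mice lacked Notch3, a cell-surface receptor of the Notch family best known from vascular smooth muscle cells and pericytes. The labels call the comparison kidneys healthy, and the study harvested the untouched left kidneys for comparison. They do not say whether a healthy array and a UUO array came from the same animal, whether animals were pooled, or whether replicate arrays are separate animals. The p-values therefore measure only the spread between these arrays, which may be technical, and the small number of arrays limits the precision.

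T cells recognise antigen through the T cell receptor, which signals through the CD3 chains and the zeta chain (Cd247). The kinase Lck phosphorylates these chains, the kinase Zap70 binds to them, and the adaptor Lat passes the signal on. NK cells and cytotoxic T cells kill target cells with perforin and granzymes, and NK cells are steered by lectin-like and immunoglobulin-like receptors. B cells signal through Cd79a and Cd79b, which sit beside the surface antibody. A healthy kidney cortex holds few lymphocytes, and the obstructed kidney is known to draw T cells, NK cells and macrophages into the space between its tubules.

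Signals are given as log2 of the processed signal relative to the 75th percentile of the array, so that 0 is the level of a bright probe and a difference of 1 is 2-fold. Between 65.3% and 73.2% of the 43020 non-control spots of an array were well above background, and no spot was saturated. The Notch3 probe gave -0.26 and -0.50 in wild-type healthy, 0.91 and 0.67 in wild-type UUO, -4.98 and -5.39 in Notch3-/- healthy and -4.30, -3.74 and -3.63 in Notch3-/- UUO kidneys, so every Notch3-/- array lay below every wild-type array. Among kidney markers, Lrp2 and Slc34a1 of the proximal tubule and Umod of the loop of Henle were each well above background on 9 of 9 arrays. Notch3-/- UUO replicates 2 and 3 stood apart from the other 7 arrays. They gave 0.18 and -0.01 for Xist, the RNA of the inactive X chromosome, against at most -5.71 elsewhere, and 4.69 and 5.15 for Cyp11b1, an enzyme of the adrenal cortex, against at most -4.14. Over 9 adrenal cortex genes the median signal was 3.61 and 3.82 on these 2 arrays and -5.20 on Notch3-/- UUO replicate 1. Ddx3y, a gene of the Y chromosome, read -3.80 and -3.67 on them against at least -0.27 elsewhere, so the Xist and Ddx3y signals of these 2 arrays went against the matched sex that the design states. Per the file headers the arrays were scanned on 4 days, of which 0 held both genotypes, and the effect of genotype and that of scan day cannot be told apart.

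A gene was tested if a probe of it exceeded background clearly on 2 or more of the 9 arrays, and the brightest such probe stood for it. Of the 39 lymphocyte genes, 32 passed and 7 did not: Cd247, Cd27, Ctla4, Klrk1, Trat1, Blk and Pax5. Dim signals were common among the 32. In wild-type healthy kidneys 5 were well above background on no array, in wild-type UUO kidneys 1, in Notch3-/- healthy kidneys 9 and in Notch3-/- UUO kidneys 0, and 19 were well above background on all 9 arrays. Ncr1 passed only through the 3 Notch3-/- UUO arrays. Ms4a1, Cd79a and Sh2d1a passed only through UUO arrays. Genes that passed through the group where they are high had to differ, so the counts below describe the tested genes and not the set of 39.

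**Figure D1:**
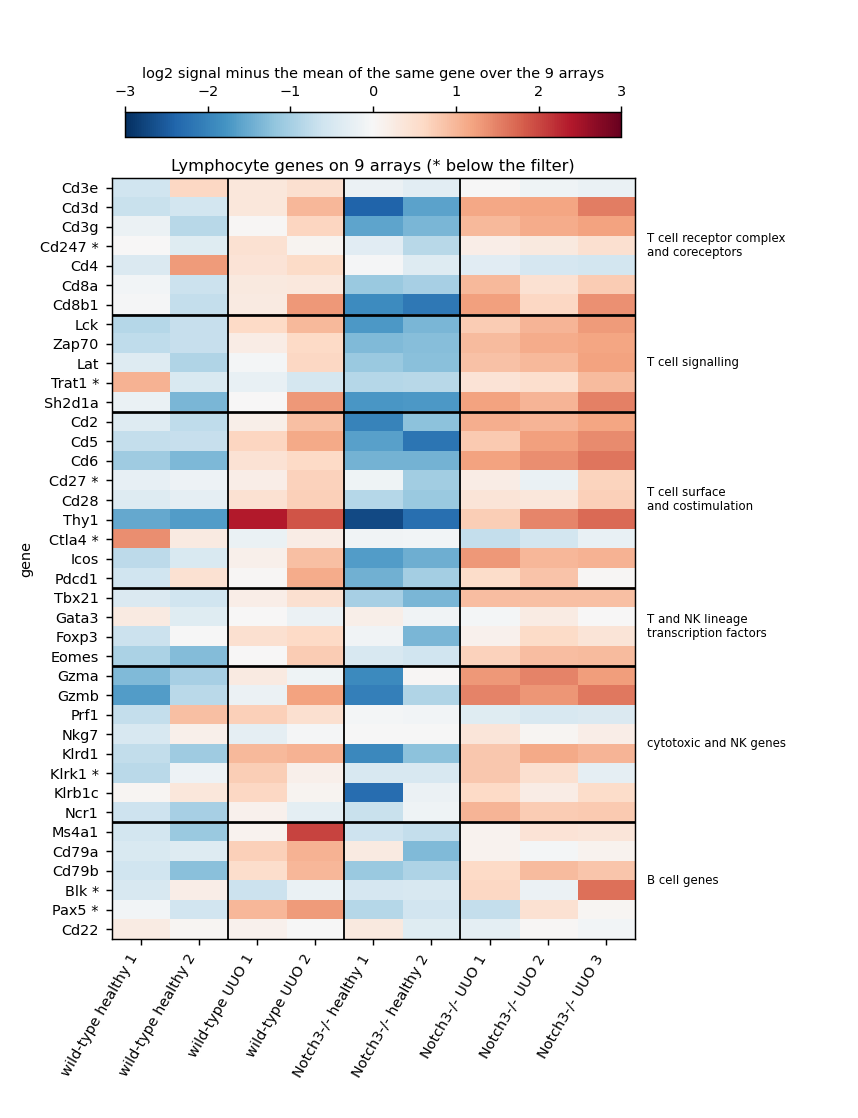
Signal of the 39 lymphocyte genes (rows, grouped by role) on the 9 arrays (columns), as log2 signal minus the mean of the same gene over the 9 arrays, with red above and blue below that mean and * for the 7 genes below the filter. The Notch3-/- healthy columns hold the deepest blue for most T cell genes, as for Cd3d at -4.86 and -4.07 on the log2 scale, while Gata3, Nkg7, Cd22 and Cd4 show no red block in the UUO columns.

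Obstruction was accompanied by higher signals of many T cell genes in both genotypes. In wild-type kidneys 15 of the 32 tested genes rose and 0 fell after obstruction (limma, Benjamini-Hochberg adjusted over all 23877 genes and transcripts tested), where 14.1% of all features tested rose and 11.8% fell. In Notch3-/- kidneys 22 rose and 0 fell, where 13.3% of all features rose and 13.9% fell. The median log2 change was 1.12 in wild-type and 1.96 in Notch3-/- kidneys, against 0.03 and -0.07 over all features tested. With normexp, another background correction, the medians were 0.37 and 0.31 (-0.05 and -0.23 over all features), and in the authors' deposited table they were 0.47 and 1.13 (-0.04 and -0.06), so the larger median in Notch3-/- kidneys was not seen with normexp. The UUO arrays lay above the healthy arrays without overlap for 24 genes in wild-type kidneys, with 0 the other way, and for 26 in Notch3-/- kidneys, with 1 the other way. Over all features these shares were 33.4% and 31.2% in wild-type and 26.1% and 35.2% in Notch3-/- kidneys. Both genotypes shared 14 of the genes that rose, 8 passed in Notch3-/- and not in wild-type kidneys, 1 (Ms4a1) passed in wild-type and not in Notch3-/- kidneys, and 9 passed in neither. The pair of arrays from wild-type obstructed kidneys lay on 1 slide scanned on 1 day, and each wild-type healthy array had a slide and a day of its own. In wild type the effect of obstruction thus cannot be told apart from that of slide and scan day, and a random block cannot separate them. The wild-type count was 9 with slide (10.1% of all features called) and 8 with scan day (10.3%) as a random block, the latter chosen after the data were seen. It was 9 with normexp (26.6%), with array weights (20%) and with the replicate number as a block (10.8%). With only the 2 groups compared in the fit it was 8 (14.7%), and in the main fit 25.8% of all features were called. In bulk RNA, more lymphocytes and more RNA per lymphocyte cannot be told apart. Without Notch3-/- UUO replicates 2 and 3, a choice made after the data were seen, 7 genes passed in Notch3-/- kidneys with a median change of 2.04, and over all features the share called fell to 1.62%. Without wild-type UUO replicate 2, which leaves no replicate of that group, the median change in wild-type kidneys was 0.78. With 1 array left out at a time, 8 of the 15 wild-type calls were lost at least once. They were Cd2, Cd3d, Cd5, Cd28, Icos, Lat, Tbx21 and Ms4a1, all 8 without wild-type UUO replicate 2. Cd3d, Cd2, Cd28, Lat and Tbx21 were lost without wild-type UUO replicate 1, Cd3d, Cd2, Cd28, Icos and Ms4a1 without wild-type healthy replicate 1, and Cd3d, Cd2, Lat, Tbx21 and Ms4a1 without wild-type healthy replicate 2. Leaving out a Notch3-/- array, which enters the wild-type response only through the shared error, lost Lat and Ms4a1 in each of 5 cases, with Cd2 for each UUO array and Cd3d for UUO replicate 2. In Notch3-/- kidneys 6 of the 22 calls were lost at least once. Pdcd1 was lost without any one of the 5 Notch3-/- arrays, Gzma without UUO replicate 2 or 3, Eomes without either healthy array, and Gzmb, Ncr1 and Sh2d1a without healthy replicate 1.

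Among the chains of the T cell receptor complex, the delta and gamma chains of CD3 gave the clearest change. Cd3d, the CD3 delta chain, read -3.15 and -3.02 in wild-type healthy, -2.13 and -1.48 in wild-type UUO, -4.86 and -4.07 in Notch3-/- healthy and -1.31, -1.30 and -0.93 in Notch3-/- UUO kidneys. All 5 UUO arrays lay above all 4 healthy arrays, and the Notch3-/- healthy arrays were the lowest of the 9. Cd3d rose by a log2 of 1.29 ± 0.32 (SE) in wild-type (adjusted p = 0.0297) and by 3.29 ± 0.29 in Notch3-/- kidneys (adjusted p = 0.0011). Cd3g, the gamma chain, read -3.49 and -4.14, -3.28 and -2.67, -4.90 and -4.68 and -2.34, -2.21 and -2.10 in the same order of groups. It rose in Notch3-/- kidneys by 2.57 ± 0.26 (adjusted p = 0.00156), while its wild-type change of 0.84 ± 0.28 missed the threshold (adjusted p = 0.0684). The Cd3e probe, for the epsilon chain, did not follow. It read -0.87 and 0.34 in wild-type healthy and -0.29, -0.41 and -0.49 in Notch3-/- UUO kidneys, its wild-type healthy arrays spanned all the other 7, and neither response passed, at 0.39 ± 0.36 and 0.14 ± 0.32. Its wild-type change was -0.22 without wild-type healthy replicate 1 and 0.99 without replicate 2, so these arrays do not settle whether Cd3e rose there. Cd247 was well above background on 0 of 9 arrays.

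The 3 CD3 genes are neighbours on mouse chromosome 9. Their start-site windows are shown because 2 of them rose in Notch3-/- kidneys while the probe of the third passed in neither genotype. In RefSeq on GRCm38.p6 the start sites of Cd3g and Cd3d lie 1355 bases apart on opposite strands, and that of Cd3e lies 29180 bases from that of Cd3g. Each window runs from 250 bases before to 50 bases after the start, 5′ to 3′ on the strand of the gene. Cd3g is at chr9:44980382-44980681 on the minus strand, Cd3d at chr9:44981536-44981835 on the plus strand and Cd3e at chr9:45009562-45009861 on the minus strand. Capitals mark matches to AGGAAG, a core bound by ETS factors, on either strand.
Cd3g: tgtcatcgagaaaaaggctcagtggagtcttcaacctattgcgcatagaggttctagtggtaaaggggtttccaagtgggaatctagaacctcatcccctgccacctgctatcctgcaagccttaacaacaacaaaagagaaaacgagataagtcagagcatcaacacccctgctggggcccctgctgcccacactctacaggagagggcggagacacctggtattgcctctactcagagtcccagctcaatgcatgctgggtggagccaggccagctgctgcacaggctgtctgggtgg
Cd3d: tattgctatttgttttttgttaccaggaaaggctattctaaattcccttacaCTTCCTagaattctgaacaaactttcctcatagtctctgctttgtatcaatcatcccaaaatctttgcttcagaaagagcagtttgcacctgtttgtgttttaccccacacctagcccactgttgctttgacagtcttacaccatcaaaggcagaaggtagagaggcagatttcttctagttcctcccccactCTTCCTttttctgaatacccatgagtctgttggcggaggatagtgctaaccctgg
Cd3e: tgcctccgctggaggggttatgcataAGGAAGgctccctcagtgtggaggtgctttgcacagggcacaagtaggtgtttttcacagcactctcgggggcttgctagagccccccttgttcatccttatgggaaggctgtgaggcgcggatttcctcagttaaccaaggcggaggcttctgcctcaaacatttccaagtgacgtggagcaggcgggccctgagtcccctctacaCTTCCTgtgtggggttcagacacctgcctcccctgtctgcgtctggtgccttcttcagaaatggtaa
Cd3d and Cd3e each hold 2 matches and Cd3g holds 0, so these letters did not separate the 2 genes that rose in Notch3-/- kidneys from Cd3e. RefSeq windows were found for 27 of the 39 genes, 32 windows in all. AGGAAG occurred in 17 of the 32 (53.1%), against 35.4% of 32851 windows of all genes. TGTGGT, a RUNX core, occurred in 12 (37.5%) against 16.8%, among them those of Lck, Zap70, Lat, Gzma, Gzmb, Prf1, Nkg7 and Ncr1. The octamer ATGCAAAT occurred in 0 of 32, against 1.74% of all windows. All 3 motifs were searched on both strands, no motif contains the letters of another, and a match is a description of the sequence only.

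The coreceptors CD4 and CD8 help the receptor bind antigen on helper and cytotoxic T cells. Cd8a, the CD8 alpha chain, read -5.25 and -5.82 in wild-type healthy, -4.87 and -4.86 in wild-type UUO, -6.28 and -6.18 in Notch3-/- healthy and -4.20, -4.71 and -4.41 in Notch3-/- UUO kidneys, again with all UUO arrays above all healthy arrays. Cd8b1, the beta chain, read -5.63 and -6.33, -5.34 and -4.31, -7.49 and -7.75 and -4.38, -4.99 and -4.24. Both rose in Notch3-/- kidneys, by 1.79 ± 0.22 and 3.08 ± 0.39. Neither was well above background on any Notch3-/- healthy array. A fold against the lowest measurable signal is therefore a bound, at least 3.04-fold for Cd8a and at least 2.83-fold for Cd8b1. Their wild-type changes of 0.67 ± 0.24 and 1.16 ± 0.42 did not pass (adjusted p = 0.0795 and 0.0866). The brighter Cd4 probe gave 0.32 and 2.03 in wild-type healthy kidneys, a spread wider than any change of this probe between groups, and passed in neither genotype. Its wild-type change passed as -0.78 without wild-type healthy replicate 1 and as 0.92 without replicate 2. Of the 6 tested genes of the receptor complex and coreceptors, 1 rose in wild-type and 4 rose in Notch3-/- kidneys, with median changes of 0.75 and 2.18. Over all features 14.1% rose in wild-type and 13.3% in Notch3-/- kidneys, so the wild-type count was near that share.

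**Figure D2:**
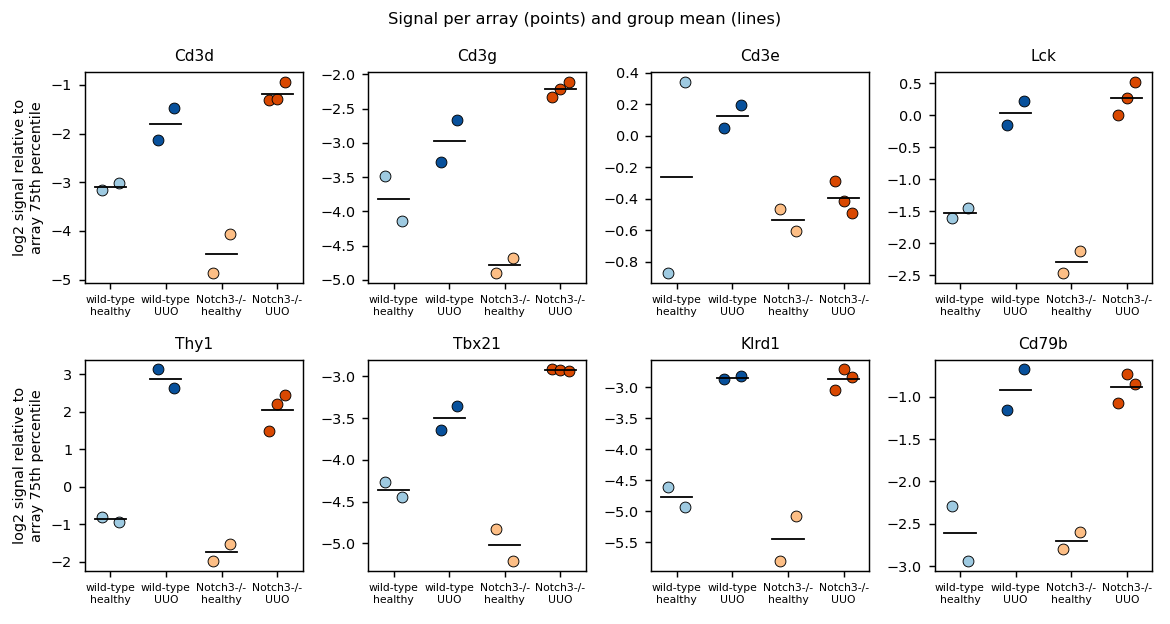
Log2 signal relative to the array 75th percentile (vertical axis) of 8 lymphocyte genes by group, with 1 point an array and a line at the group mean. In 7 of the 8 panels the UUO arrays of a genotype lie above its healthy arrays, and in the Cd3e panel the wild-type healthy arrays lie on both sides of all others, at -0.87 and 0.34.

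Of the 4 tested genes that carry the receptor signal into the cell, 3 rose in wild-type and 4 rose in Notch3-/- kidneys. The shares of all features that rose were 14.1% and 13.3%. Lck, the first kinase of the pathway, read -1.61 and -1.45 in wild-type healthy, -0.15 and 0.23 in wild-type UUO, -2.47 and -2.13 in Notch3-/- healthy and 0.00, 0.27 and 0.53 in Notch3-/- UUO kidneys. It rose by 1.57 ± 0.23 in wild-type (adjusted p = 0.00599) and by 2.56 ± 0.21 in Notch3-/- kidneys (adjusted p = 0.00084), and the UUO arrays of both genotypes overlapped. Zap70 read -3.20 and -3.14, -2.23 and -1.85, -3.78 and -3.72 and -1.50, -1.33 and -1.27 in the same order. Replicates of Zap70 lay close together, within 0.39 in every group, and each of its 4 groups stood clear of the others. Zap70 rose by 1.13 ± 0.17 in wild-type and by 2.38 ± 0.15 in Notch3-/- kidneys. Lat rose by 0.92 ± 0.27 (adjusted p = 0.049) and by 2.20 ± 0.25 (adjusted p = 0.00252). Sh2d1a, the adaptor SAP that works downstream of SLAM receptors, rose by 2.98 ± 0.46 in Notch3-/- kidneys, at least 1.64-fold, and changed by 1.44 ± 0.50 in wild-type kidneys without passing. Sh2d1a was well above background on no healthy array, so it was tested only because of the UUO arrays where it is high. The adaptor gene Trat1 was below the filter.

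Surface and costimulatory genes of T cells rose in both genotypes. Cd5 and Cd6 are related receptors that tune T cell receptor signals. Cd6 read -3.64 and -3.92 in wild-type healthy, -2.14 and -1.97 in wild-type UUO, -4.00 and -3.98 in Notch3-/- healthy and -1.36, -1.18 and -0.96 in Notch3-/- UUO kidneys. The healthy arrays of both genotypes lay close together, and the Notch3-/- UUO arrays stood above all the others. Cd6 rose by 1.73 ± 0.18 (adjusted p = 0.0019) in wild-type and by 2.83 ± 0.16 (adjusted p = 0.00045) in Notch3-/- kidneys. Cd5 rose by 1.59 ± 0.29 and 3.05 ± 0.26, and Cd2, an adhesion receptor of T and NK cells, by 1.11 ± 0.33 and 2.70 ± 0.30. Icos, a costimulatory receptor of activated T cells, rose by 1.14 ± 0.27 in wild-type and by 2.68 ± 0.25 in Notch3-/- kidneys, and in the latter by at least 5.56-fold, since it was well above background on no Notch3-/- healthy array. Cd28, the main costimulatory receptor, rose by 0.91 ± 0.19 and 1.47 ± 0.17. Pdcd1, the inhibitory receptor PD-1, passed in Notch3-/- and not in wild-type kidneys (0.65 ± 0.49, adjusted p = 0.372). In Notch3-/- kidneys it rose by 1.71 ± 0.45 (adjusted p = 0.0331) or at least 2.57-fold, and the Notch3-/- UUO arrays read -4.61, -4.31 and -5.12.

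Thy1 marks mouse T cells, and fibroblasts and other stromal cells also make it. Its signal was -0.80 and -0.93 in wild-type healthy, 3.13 and 2.64 in wild-type UUO, -1.98 and -1.52 in Notch3-/- healthy and 1.48, 2.20 and 2.44 in Notch3-/- UUO kidneys. The wild-type UUO arrays were the highest of the 9, unlike those of Cd6, Zap70 or Cd3g. Thy1 rose by 3.74 ± 0.34 in wild-type and 3.79 ± 0.31 in Notch3-/- kidneys, and its response had the largest log2 value of the 32 tested genes in both genotypes. Of the 7 tested surface genes 6 rose in wild-type and 7 rose in Notch3-/- kidneys, where 14.1% and 13.3% of all features rose. Cd27 and the inhibitory receptor Ctla4 were below the filter.

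**Figure D3:**
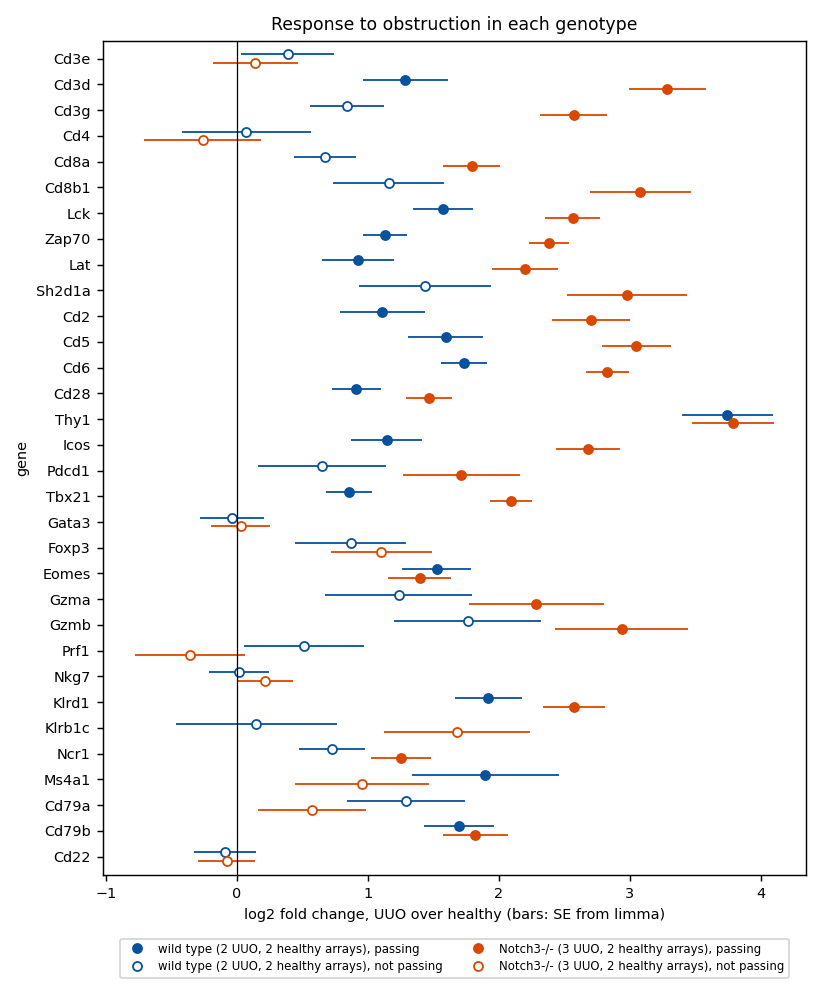
Log2 fold change of UUO over healthy kidneys (horizontal axis, bars 1 SE from limma) of the 32 tested lymphocyte genes in wild-type (blue) and Notch3-/- (orange) kidneys, filled where the adjusted p passed 0.05. The orange point lies to the right of the blue point for 26 of the 32 genes, and the exceptions include Eomes (1.52 and 1.39) and Ms4a1 (1.90 and 0.96).

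Transcription factors that set T and NK lineages split into 2 that rose and 2 that did not pass in either genotype. Of all features, 14.1% rose in wild-type and 13.3% in Notch3-/- kidneys. Tbx21 (T-bet), the factor of type 1 helper cells and NK cells, read -4.27 and -4.45 in wild-type healthy, -3.64 and -3.36 in wild-type UUO, -4.83 and -5.21 in Notch3-/- healthy and -2.92, -2.92 and -2.94 in Notch3-/- UUO kidneys. Its Notch3-/- UUO arrays were nearly equal and lay above both wild-type UUO arrays. It rose by 0.86 ± 0.17 (adjusted p = 0.0166) and by 2.09 ± 0.16 (adjusted p = 0.000696). Eomes, the related factor of NK and memory cytotoxic T cells, rose by 1.52 ± 0.26 and 1.39 ± 0.24. Foxp3, the factor of regulatory T cells, changed by 0.87 ± 0.42 (adjusted p = 0.174) and 1.10 ± 0.39 (adjusted p = 0.0749). Gata3, which marks type 2 helper cells and is also made by the collecting duct, read 1.003 and 0.36 in wild-type healthy and 0.74 and 0.54 in wild-type UUO kidneys, and its changes were -0.04 ± 0.24 and 0.03 ± 0.22. The 95% intervals of the Gata3 changes were -0.62 to 0.54 and -0.50 to 0.56.

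Of the 7 tested cytotoxic and NK genes, 4 rose in Notch3-/- and 1 rose in wild-type kidneys. Over all features 13.3% rose in Notch3-/- and 14.1% in wild-type kidneys, so the wild-type count was near that share. The 4 Notch3-/- calls include Ncr1, which was tested only because of the arrays where it is high. Gzma, granzyme A, read -3.04 and -2.70 in wild-type healthy, -1.43 and -1.84 in wild-type UUO, -3.63 and -1.67 in Notch3-/- healthy and -0.41, -0.23 and -0.46 in Notch3-/- UUO kidneys. The Notch3-/- healthy arrays differed by 1.96, the widest replicate gap of this gene, and still lay below the 3 Notch3-/- UUO arrays. Gzma rose by 2.28 ± 0.51 in Notch3-/- kidneys (adjusted p = 0.023) and changed by 1.23 ± 0.56 in wild-type kidneys (adjusted p = 0.151). Gzmb, granzyme B, rose by 2.94 ± 0.51 in Notch3-/- kidneys (adjusted p = 0.0118). Its wild-type UUO arrays read -5.12 and -3.72, and the wild-type change of 1.76 ± 0.56, at least 3.04-fold, had an adjusted p of 0.0592. Klrd1, the CD94 chain of NK receptors, rose in both genotypes, by 1.92 ± 0.26 (adjusted p = 0.00455) and 2.57 ± 0.24 (adjusted p = 0.0012).

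Ncr1 (NKp46), the receptor most specific to NK cells, read -5.93, -6.19 and -6.18 on the Notch3-/- UUO arrays, the only ones on which it was well above background, and -6.83 and -7.25 in wild-type UUO kidneys. Its fitted change in Notch3-/- kidneys, 1.25 ± 0.23, passed (adjusted p = 0.0137), but the mean of these signals did not exceed the lowest measurable signal of the dim arrays, so no fold is given, and with normexp the change was -0.37. Klrb1c (NK1.1) changed by 1.68 ± 0.56 in Notch3-/- kidneys without passing (adjusted p = 0.0655). Prf1, perforin, read -3.11 and -1.49 in wild-type healthy, -1.67 and -1.91 in wild-type UUO, -2.45 and -2.48 in Notch3-/- healthy and -2.75, -2.87 and -2.84 in Notch3-/- UUO kidneys. It was the one tested gene whose Notch3-/- UUO arrays all lay below the Notch3-/- healthy arrays, by a small amount that did not pass, -0.36 ± 0.42 (adjusted p = 0.558). The share of all features with such a separation downward was 35.2%. The activating receptor gene Klrk1 was below the filter.

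Of the 4 tested B cell genes, 2 rose in wild-type and 1 rose in Notch3-/- kidneys, where 14.1% and 13.3% of all features rose. Ms4a1 and Cd79a were well above background on no healthy array, so they were tested only because of the UUO arrays. Cd79b, a signalling chain of the B cell receptor, read -2.29 and -2.94 in wild-type healthy, -1.16 and -0.68 in wild-type UUO, -2.80 and -2.60 in Notch3-/- healthy and -1.08, -0.73 and -0.84 in Notch3-/- UUO kidneys. It rose by 1.69 ± 0.27 (adjusted p = 0.00781) and 1.82 ± 0.25 (adjusted p = 0.00491), and in each condition the arrays of both genotypes overlapped. Ms4a1 (CD20) rose in wild-type kidneys by 1.90 ± 0.56 (adjusted p = 0.0484), at least 2.76-fold. Its wild-type UUO arrays read -5.33 and -3.40, a gap of 1.93, and without wild-type UUO replicate 2 it no longer passed. In Notch3-/- kidneys Ms4a1 changed by 0.96 ± 0.51 (adjusted p = 0.206). Cd79a changed by 1.29 ± 0.45 and 0.57 ± 0.41, with neither passing, and Cd22, an inhibitory receptor of B cells, by -0.09 ± 0.24 and -0.08 ± 0.22. The kinase gene Blk and Pax5, the factor that fixes B cell identity, were below the filter.

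For 5 genes with 2 probes above the filter, the probes gave different calls in at least 1 genotype. Nkg7, a granule protein of cytotoxic cells, had a bright probe that read -0.19 and 0.44 in wild-type healthy, 0.02 and 0.26 in wild-type UUO, 0.28 and 0.28 in Notch3-/- healthy and 0.65, 0.33 and 0.49 in Notch3-/- UUO kidneys and passed in neither genotype. Its dimmer probe read -3.59 and -3.62, -2.66 and -2.12, -6.49 and -4.39 and -1.91, -2.39 and -2.01. In a fit of single probes the dimmer one rose by 3.33 ± 0.56 in Notch3-/- kidneys (adjusted p = 0.0106) and changed by 1.22 ± 0.61 in wild-type kidneys (adjusted p = 0.184). For Cd6 the opposite held, since the dimmer probe changed by 0.72 ± 0.40 and 0.39 ± 0.36 and passed in neither. Both probes of Cd4 passed in neither genotype. Second probes rose in Notch3-/- kidneys with the first for Cd2 (2.63 ± 0.29), Icos (2.43 ± 0.28) and Zap70 (1.63 ± 0.24). The second probes of Cd2 and Icos were well above background on no Notch3-/- healthy array, so their rises are bounds, at least 2.27-fold and at least 2.42-fold. In wild-type kidneys, where the brighter probes of these 3 genes rose, the second probes did not pass. They changed by 0.97 ± 0.32 for Cd2 (adjusted p = 0.0644), 0.35 ± 0.31 for Icos (adjusted p = 0.45) and 0.82 ± 0.26 for Zap70 (adjusted p = 0.0582). No pair of probes was called in opposite directions, and the files used here do not give the transcript position of a probe.

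**Figure D4:**
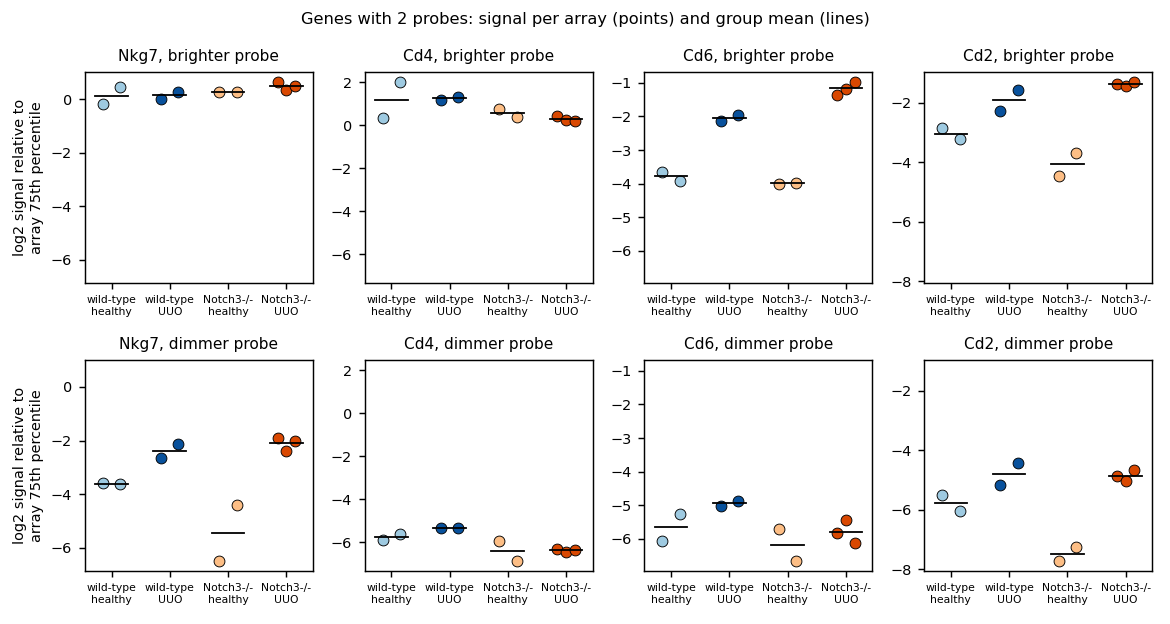
Log2 signal relative to the array 75th percentile (vertical axis, shared within a column) of the brighter (top) and dimmer (bottom) probe of Nkg7, Cd4, Cd6 and Cd2 by group, with 1 point an array and a line at the group mean. The dimmer Nkg7 probe climbs from -6.49 and -4.39 in Notch3-/- healthy to -1.91, -2.39 and -2.01 in Notch3-/- UUO kidneys where the brighter one is flat, and for Cd6 the brighter probe is the one that climbs.

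Between obstructed kidneys of the 2 genotypes, the comparison the study was designed around, 0 of the 32 tested genes passed (limma), where 0.272% of all features did, 0.0796% as higher and 0.193% as lower. At an unadjusted p under 0.05 there were 10, 8 of them higher and 2 lower in Notch3-/- kidneys, against 16.8% of all features. The median difference was 0.27, against 0.00 over all features. Cd6 had the smallest adjusted p, 0.0836, with a difference of 0.89 ± 0.16 by its brighter probe. The dimmer Cd6 probe differed the other way, by -0.86 ± 0.36 (adjusted p = 0.31 in the fit of single probes). Zap70 (0.67 ± 0.15), Tbx21 (0.57 ± 0.16), Cd3g (0.76 ± 0.26), Lat (0.74 ± 0.25), Gzma (1.27 ± 0.51) and Icos (0.59 ± 0.25) were among the other 7 higher ones. The last of the 7 was Ncr1, well above background on 0 wild-type UUO arrays and tested only because of the Notch3-/- UUO arrays, so its difference has no measured size. Prf1 (-1.03 ± 0.42) and Thy1 (-0.84 ± 0.31) were the lower ones. The second probe of Zap70 differed by 0.22 ± 0.24. That of Icos differed by 0.89 ± 0.28 and was well above background on no wild-type UUO array. The 3 Notch3-/- UUO arrays lay above both wild-type UUO arrays for 13 genes and below both for 5 (Cd3e, Cd4, Cd79a, Prf1 and Thy1), where 21.2% and 22.5% of all features did so. A wild-type healthy array enters these differences only through the shared error, so leaving out either one changed none of them. It left no replicate of that group, and more features then passed over the whole array. Among them were Cd6, by its brighter probe, as higher and Cd4 and Prf1 as lower.

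Between healthy kidneys of the 2 genotypes 0 of the 32 tested genes passed (limma), where 0.511% of all features did, 0.239% as higher and 0.272% as lower. At an unadjusted p under 0.05 there were 13, all of them lower, against 17.9% of all features, and the smallest adjusted p was 0.118 for Cd3d (-1.38 ± 0.32). The median difference was -0.60 against 0.06 over all features, and with normexp background correction it was 0.08 against 0.19, so it lay below that of all features both times but changed sign. Both Notch3-/- healthy arrays lay below both wild-type healthy arrays for 18 genes and above both for 1 (Eomes), where 17.2% and 28.2% of all features did so. Cd5 differed by -1.20 ± 0.29 and Cd2 by -1.04 ± 0.33. All 7 tested surface genes and all 4 tested signalling genes were among the 18, while of the B cell genes 0 were. For the genes well above background on no Notch3-/- healthy array the fold by which the Notch3-/- signal was lower is a bound, at least 1.75-fold for Pdcd1, 1.68-fold for Icos, 1.42-fold for Cd8a and 1.04-fold for Cd8b1. The 75th percentile itself lay at 9.36 and 9.69 on the log2 scale on the Notch3-/- healthy arrays and at 9.98 and 10.2 on the wild-type ones. Genes of other tissue were also lower in Notch3-/- healthy kidneys. Of 7 lymph node and lymphoid stroma genes 6 had a negative difference (median -1.12, 0 passed), and of 7 adipocyte genes 7 had (median -3.01, 1 passed, Lep). The adipocyte medians were 2.31 and -0.37 on the wild-type healthy arrays and -5.46 and 2.06 on the Notch3-/- ones. The part of the percentile and of these tissues in the result was not tested.

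The difference of the 2 responses was tested directly, as the Notch3-/- change minus the wild-type change, and 0 of the 32 genes and 0 of all 23877 features passed (limma). At an unadjusted p under 0.05 there were 12, all of them with the larger change in Notch3-/- kidneys, against 7.13% of all features. The smallest adjusted p among them was 0.339, for Zap70, at a difference of 1.25 ± 0.23 and a 95% interval of 0.72 to 1.79. In the fit of single probes, the second Zap70 probe differed by 0.81 ± 0.35, with an interval of -0.02 to 1.65. Cd3d differed by 2.001 ± 0.44, Cd3g by 1.73 ± 0.38 and Tbx21 by 1.24 ± 0.24. Cd8a, Cd8b1 and Icos were also among the 12, but each was well above background on 0 Notch3-/- healthy arrays, so their differences have no measured size. For Thy1 the difference was 0.04 ± 0.47, with an interval of -1.07 to 1.15 that leaves room for either sign. The median over the 32 genes was 1.02 against -0.07 over all features, and with normexp background correction it was 0.00 against -0.14. By role the medians of the fitted differences, such genes included, were 1.43 for the receptor complex, 1.27 for signalling, 1.10 for surface genes, 0.65 for cytotoxic and NK genes, 0.15 for transcription factors and -0.35 for B cell genes.

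In wild-type UUO kidneys replicate 2 read above replicate 1 for 25 of the 32 tested genes and for 14 of the 15 that rose. The same count was not made over all features, so whether this is particular to lymphocyte genes was not tested.

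Further genes of the same cells were read for comparison. For these and the later lists the shares of all features that rose were 14.1% in wild-type and 13.3% in Notch3-/- kidneys. Of 38 other T cell genes on the array 30 were tested, and 17 rose and 2 fell in wild-type kidneys (median change 1.31), while 24 rose and 1 fell in Notch3-/- kidneys (median 1.74). Cd69, an early activation marker, rose by 2.58 ± 0.30 and 4.13 ± 0.27, the chemokine gene Ccl5 by 2.70 ± 0.30 and 3.57 ± 0.27, and Ccr7, the homing receptor of naive T cells and dendritic cells, by 2.14 ± 0.18 and 2.20 ± 0.17. Ifng, the cytokine interferon gamma, rose by 2.76 ± 0.26 in Notch3-/- kidneys and changed by -0.22 ± 0.28 in wild-type kidneys, and the test of that difference, 2.99 ± 0.38, gave an adjusted p of 0.241. Il7r, the receptor for interleukin 7, was the 1 gene of this list that passed between healthy kidneys, where it was lower in Notch3-/- mice by -2.11 ± 0.29 (adjusted p = 0.0443). Of 19 other NK and cytotoxic genes tested 6 rose in wild-type and 12 in Notch3-/- kidneys, with 0 falling and medians of 0.80 and 1.80. Xcl1, a chemokine of NK and T cells, rose by 2.25 ± 0.17 in Notch3-/- kidneys and changed by 0.54 ± 0.19 in wild-type kidneys. Hcst and Tyrobp, adaptors of activating receptors in NK and myeloid cells, rose in both genotypes, Tyrobp by 2.60 ± 0.28 and 2.92 ± 0.25. Of 23 other B cell and plasma cell genes tested 11 rose in wild-type and 9 in Notch3-/- kidneys, with 0 falling and medians of 1.09 and 0.98. Cd72, a B cell coreceptor, rose by 2.98 ± 0.13 and 2.29 ± 0.12, and Irf4, a factor of plasma cells, activated T cells and macrophages, by 3.84 ± 0.30 and 2.71 ± 0.27.

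Markers shared by all white blood cells rose as well. Of 15 pan-leukocyte genes 14 rose in each genotype, with medians of 1.78 and 2.18, and Ptprc (CD45) rose by 1.53 ± 0.18 and 2.11 ± 0.17. Their array medians were -1.69 and -1.57 in wild-type healthy, 0.11 and 0.47 in wild-type UUO, -2.10 and -1.87 in Notch3-/- healthy and 0.09, 0.07 and 0.22 in Notch3-/- UUO kidneys. UUO arrays of both genotypes thus overlapped. Of 13 macrophage genes 11 rose in each genotype, with 0 falling in wild-type and 1 (Itgam) in Notch3-/- kidneys. The 7 genes of lymph node and lymphoid stroma mark tissue that could lie beside a kidney and holds many lymphocytes. Their log2 summed signal ran from 0.04 to 0.15 in wild-type healthy, -0.08 to 0.42 in wild-type UUO, -0.81 to -0.51 in Notch3-/- healthy and -0.08 to 0.20 in Notch3-/- UUO kidneys. Madcam1 rose in both genotypes and Ccl19 in Notch3-/- kidneys, none fell, and Glycam1, made by the high endothelial vessels of nodes, read -8.22 and -5.26 in wild-type UUO and -8.51, -8.35 and -8.57 in Notch3-/- UUO kidneys. On wild-type UUO replicate 2, the array with the higher lymphocyte signals of its pair, Cxcl13 read -3.84 against -6.09 on replicate 1, and the part of node tissue in these results was not tested. The 9 adrenal genes had a log2 summed signal of -0.49 to 8.22 over the Notch3-/- UUO arrays and at most 0.70 on any other, and their part in the results beyond the values without these arrays was not tested.

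**Figure D5:**
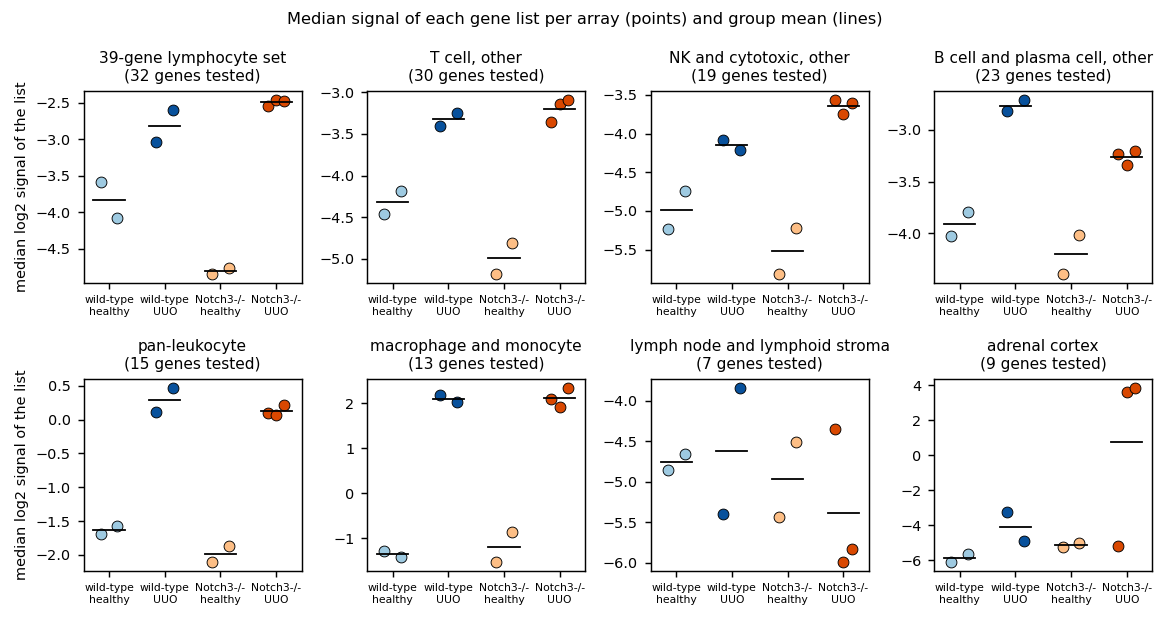
Median log2 signal per array (vertical axis, scale set per panel) of the 32 tested lymphocyte genes and 7 comparison lists by group, with 1 point an array and a line at the group mean. Lymphocyte genes are lowest in Notch3-/- healthy kidneys (-4.85 and -4.76) and reach -2.54 to -2.46 in Notch3-/- UUO kidneys, while the adrenal list is high on 2 of the 3 Notch3-/- UUO arrays.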

How the data were processed

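The 9 arrays were grouped by their titles. Per the file headers, Feature Extraction 10.7.3.1 made the deposited spot intensities, and the submitters' processing notes give 10.5. Processed signals are intensities that the authors deposited after background subtraction and without normalization between arrays, and the spot flags come from the same files. The deposited value table holds the authors' log2 values, which correlated at 0.971 to 0.986 with the processed signals, were not centred per gene (column medians 7.02 to 7.05), and their normalization method is not stated in the labels or headers.

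Outlier spots (117 to 204 an array) were dropped, processed signals were put on a log2 scale relative to the 75th percentile of the array's 43020 non-control spots, and repeat spots were averaged. RefSeq accessions named 27234 of 39429 probes through a table of assembly GRCm38.p6. Probes well above background on at least 2 arrays were kept, and the brightest stood for its gene. A model of 4 group means over the 9 arrays was fitted in limma 3.58.1 under R 4.3.3 (5 residual degrees of freedom), with Benjamini-Hochberg adjustment over 23877 features at a threshold of 0.05. A bound sets the brighter group's mean against, on each dim array, the lowest signal that is well above background or the gene's measured signal, whichever is higher. Only the limma fit was run on simulated data with known changes, drawn after normalization and filtering, so the other steps were not tested.

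The rule for names took the 39 genes, Notch3, Xist, Ddx3y, the adrenal list and up to 4 members of each further list with the smallest adjusted p; members of other lists were named beyond that, and examples among the 39 in the comparisons of genotypes chosen, after their values were seen. The 39 genes and the lists were chosen with earlier results of these data known. Every column with values of a sample was mapped, with 0 unused.

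The main fit did not pair arrays by replicate number. Same-numbered arrays of different groups had deviations that correlated at -0.21 to 0.157. With so few arrays a group these values cannot decide whether arrays were paired by animal. The arrays lay on 5 slides. Slides 1 and 2 carried 1 wild-type healthy array each, slide 3 both wild-type UUO arrays, slide 4 the Notch3-/- UUO arrays plus Notch3-/- healthy replicate 1, and slide 5 Notch3-/- healthy replicate 2. Alternatives were other background correction (normexp, offset 50), quantile normalization, the authors' table, other filters, averaging the probes of a gene, trended moderation, array weights, slide, scan day and replicate blocks, fits without the other groups, and omission of each array in turn.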

Additional observations from a re-analysis of the deposited data

How the results depend on the processing

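Of the 15 lymphocyte genes that rose in wild-type kidneys, 6 (Cd6, Cd79b, Klrd1, Lck, Thy1 and Zap70) passed in every alternative, and of the 22 in Notch3-/- kidneys 7 did (Cd5, Cd6, Icos, Lck, Tbx21, Thy1 and Zap70). The wild-type count was 9 with normexp (26.6% of all features called), with array weights (20%) and with the replicate block (10.8%). It was 9 with slide as a random block (consensus correlation 0.362, 10.1% called) and 8 with scan day (0.321, 10.3% called). With only the groups compared it was 8 (14.7%), and with 1 Notch3-/- UUO array left out 11 to 12 (19.7% to 31.2%). Under the remaining alternatives without omission of an array in turn it was 10 to 16 (14.9% to 29%). In the main fit 25.8% of all features were called. Without wild-type UUO replicate 2 the median wild-type change was 0.78. The Notch3-/- count was 17 with the replicate block (3.86% of all features called), 15 with normexp (35.3%) and 24 with array weights (46.8%). In the main fit 27.2% of all features were called. It was 20 to 21 with 1 Notch3-/- UUO array left out (7.36% to 36.2%). Under the remaining alternatives without omission of an array in turn it was 20 to 23 (15.3% to 30.9%). Fits without the 2 arrays with adrenal transcripts or within slide 4 leave no replicate of a group, and their median changes were 2.04 and 2.02. Between UUO kidneys the count of 0 became 1 with normexp and with the authors' table, 8 with array weights, 3 with only the groups compared and 0 to 3 with 1 array left out (3 without wild-type healthy replicate 1 or 2), and was 0 with the replicate block. It stayed at 0 in every alternative between healthy kidneys and for the difference of responses. Cd4 in wild-type kidneys was -0.78 without wild-type healthy replicate 1 and 0.92 without replicate 2, both past the threshold, and Ncr1 in Notch3-/- kidneys was -0.37 with normexp; the cause was not tested. Normexp also moved the median of all features from -0.07 to -0.23 in the Notch3-/- response and from 0.06 to 0.19 between healthy kidneys. Low signal over background limits most the 13 tested genes not well above background on all arrays.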

Other observations

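Lists of other white blood cells gave their own counts. Of 8 dendritic cell genes tested 5 rose in wild-type and 4 in Notch3-/- kidneys, with medians of 1.36 and 0.80. Of 6 neutrophil genes tested 4 rose in wild-type and 0 in Notch3-/- kidneys, with medians of 1.41 and 0.75. Whether either list differed between the genotypes was not tested beyond its genes, of which 0 passed for the difference of the responses.

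With the filter dropped, Pax5 changed by 1.47 ± 0.39 in wild-type kidneys, with an adjusted p of 0.0488 in limma, and Cd247 by 0.90 ± 0.23 in Notch3-/- kidneys, with one of 0.0427. Neither was well above background on any array. The second Klrb1c probe, below the filter, read -5.22 and -5.62 in wild-type UUO kidneys and at most -6.95 on every other array.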
